A study of Mus musculus with 15 samples.

Results

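Antibody transcripts were examined in quadriceps muscle of mice that carry the Mrps5 V338Y substitution and of wild-type mice. The genes were chosen by annotation and by a count: genes with an immunoglobulin constant, variable (V), diversity (D) or joining (J) biotype in GENCODE release M21, without pseudogenes, and Jchain, each with at least 10 counts in at least 1 mouse. Of 265 such annotated genes 241 were matched to the count files, 175 had at least 1 count in a mouse, and 78 reached 10 counts, of 39179 genes listed in the files. These 78 are 7 heavy-chain constant genes, 27 heavy V and 3 heavy J genes, 1 kappa constant gene, 32 kappa V and 4 kappa J genes, 1 lambda constant gene, 2 lambda V genes and Jchain. Neither any of the 17 named heavy D genes in the files nor the 1 further D gene reached 10 counts. Ighv1-53, Ighv7-3, Igkv10-94 and Igkv4-63 entered with a highest count of 10, whereas Ighv1-12, Ighv1-22, Ighv1-50, Ighv1-75, Igkv3-12 and Igkv5-48 stayed out with a highest count of 9. All 78 genes reached 10 counts in a 19 mo mouse and 5 of them, Ighm, Igkc, Ighg2c, Jchain and Igkv14-126, also in a 3 mo mouse. Because almost all genes passed through the 19 mo mice, their difference between the ages is given as a description of the chosen genes.

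An antibody is made of paired heavy and light chains. Each chain joins a V segment, J segments and, in the heavy chain, a D segment to a constant region, and a B cell clone keeps the V genes it has joined. The constant gene of the heavy chain sets the class, with Ighm for IgM, the Ighg genes for IgG, Igha for IgA and Ighe for IgE, and class switching replaces Ighm by one of the genes downstream of it. B cells make these transcripts at low levels, plasma cells in very large amounts, together with the J chain that links IgM and IgA into polymers. Skeletal muscle fibres are not known to rearrange these genes, while lymphocytes lie within muscle and its vessels in small numbers.

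All mice were C57BL/6. They were 4 wild-type and 4 homozygous V338Y mice at 3 mo, and 3 wild-type and 4 homozygous V338Y mice at 19 mo. V338Y is a knock-in substitution in a protein of the small mitochondrial ribosomal subunit that raises misreading, it is present in every cell, and the counts cannot show it (149 to 418 counts of Mrps5 per mouse). The 3 mo mice are also called young and the 19 mo mice old. Mice are named by their label numbers, 1 to 4 at 3 mo, 2, 4 and 5 in 19 mo wild type, and 2 to 5 in 19 mo V338Y.

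Totals ran from 8250653 to 18968132 counts per mouse. Transcripts of the Y-linked Ddx3y were present in the 8 mice of 3 mo (1582 to 2967 counts, with at most 10 counts of Xist), whereas the 7 mice of 19 mo had 5296 to 8190 counts of Xist and at most 1 of Ddx3y. By these transcripts the 3 mo mice were male and the 19 mo mice female, whereas the study describes female mice at 3 mo. Age and sex cannot be told apart in any comparison of the ages. An age effect, or a rise or fall with age, below means a difference between these groups. The library of 19 mo V338Y mouse 5 stood apart in neutrophil granule transcripts. Levels are given in CPM, counts scaled to a common library size by TMM, edgeR's correction for library composition. The 8 listed neutrophil genes summed to 638 CPM there, against 3.71, 27.9 and 7.43 CPM in 19 mo V338Y mice 2, 3 and 4 and 2.81 to 5.79 CPM in 19 mo wild-type mice. Mpo, the myeloperoxidase of granulocyte precursors, had 799 counts in it, 16 in mouse 3 and at most 1 elsewhere, and its erythroid genes, mainly haemoglobins, were also the highest (783 CPM summed over 5 genes, against 97.2 to 433 in the other 19 mo mice). Results that rest on this mouse are given with and without it, and the part of these cells in them was not tested.

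Germline sequences of 5 V genes are shown because the patterns of their counts across the mice are described further on. Ighv11-2 with Igkv14-126, and Ighv12-3 with Igkv4-91, are heavy and kappa V genes known as pairs in antibodies of B-1a cells, a self-renewing B cell lineage, that bind phosphatidylcholine. Igkv1-110 had the smallest p of the antibody genes between the genotypes at 19 mo. The sequences are the second exons in the GENCODE annotation of GRCm38, at most the last 300 bases, and not reads of these mice. Capitals run from the codon of the conserved cysteine before the third complementarity-determining region to the end of the germline exon.
Ighv11-2, chr12:114048241-114048540, minus strand: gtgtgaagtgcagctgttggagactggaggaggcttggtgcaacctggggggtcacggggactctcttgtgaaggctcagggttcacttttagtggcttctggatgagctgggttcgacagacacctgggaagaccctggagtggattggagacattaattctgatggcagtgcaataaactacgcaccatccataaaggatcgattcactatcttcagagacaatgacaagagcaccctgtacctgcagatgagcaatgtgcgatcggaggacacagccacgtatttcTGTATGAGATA
Igkv14-126, chr6:67896345-67896642, plus strand: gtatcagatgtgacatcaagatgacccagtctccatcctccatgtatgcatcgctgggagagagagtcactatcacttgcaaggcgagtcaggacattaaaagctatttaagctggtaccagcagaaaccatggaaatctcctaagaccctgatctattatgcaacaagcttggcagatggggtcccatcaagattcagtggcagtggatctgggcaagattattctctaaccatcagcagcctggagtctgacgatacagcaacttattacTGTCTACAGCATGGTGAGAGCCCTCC
Ighv12-3, chr12:114366521-114366820, minus strand: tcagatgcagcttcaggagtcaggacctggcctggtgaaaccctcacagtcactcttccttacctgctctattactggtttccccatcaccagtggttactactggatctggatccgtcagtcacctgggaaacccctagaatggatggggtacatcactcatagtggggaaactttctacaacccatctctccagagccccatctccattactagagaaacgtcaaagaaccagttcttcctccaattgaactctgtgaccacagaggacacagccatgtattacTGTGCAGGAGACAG
Igkv4-91, chr6:68768555-68768854, minus strand: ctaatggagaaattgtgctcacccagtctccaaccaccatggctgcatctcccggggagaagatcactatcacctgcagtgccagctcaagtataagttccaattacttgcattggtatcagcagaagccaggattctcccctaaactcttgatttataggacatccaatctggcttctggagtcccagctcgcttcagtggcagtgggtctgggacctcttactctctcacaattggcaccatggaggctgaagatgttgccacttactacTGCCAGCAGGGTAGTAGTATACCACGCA
Igkv1-110, chr6:68270968-68271267, plus strand: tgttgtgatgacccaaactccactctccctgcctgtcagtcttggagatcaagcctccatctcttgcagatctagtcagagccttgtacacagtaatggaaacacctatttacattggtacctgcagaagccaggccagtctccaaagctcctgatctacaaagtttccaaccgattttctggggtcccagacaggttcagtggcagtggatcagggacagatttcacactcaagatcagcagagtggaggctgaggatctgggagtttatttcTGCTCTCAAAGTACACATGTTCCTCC
RSEM, the program behind the counts, divides reads that match several genes, so the nearest relative of each V gene matters. Ighv11-2 was 98.7% identical to Ighv11-1, which had 0 counts in every mouse. Igkv14-126 was 90.9% identical to Igkv14-111, which had at most 5 counts. Igkv1-110 was 96.8% identical to Igkv1-117, which is itself among the 78 genes. The 4 Ighg genes were 74.3 to 86.7% identical in pairs. Igkc, Iglc2, Igkj1, Igkj2, Igkj4, Igkj5, Ighv1-5, Igkv2-137 and Iglv1 each overlap another annotated gene, and reads shared with it cannot be told apart here.

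The first comparison asks how antibody transcripts differed between 3 mo and 19 mo within a genotype. Igkc (chr6:70726435-70726966 in GRCm38, plus strand), the constant region of most mouse light chains, was almost absent in young muscle and present in every old muscle. In wild-type mice it had 0, 1.21, 0.332 and 0.635 CPM at 3 mo and 4.48, 9.26 and 70.6 CPM at 19 mo. In V338Y mice it had 0.287, 0.477, 0 and 0.346 CPM at 3 mo and 5.61, 15.8, 23.7 and 47.4 CPM at 19 mo. The ages did not overlap in either genotype, and the 19 mo mice spread widely within a genotype. The log2 fold change was 5.61 (SE 1.09, edgeR adjusted p = 0.00464) in wild type and 6.4 (SE 0.81, adjusted p = 0.000330) in V338Y. Without mouse 5 of the 19 mo group these were 3.58 (adjusted p = 0.00374) and 5.78 (adjusted p = 0.000140).

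Jchain (chr5:88519809-88527891, minus strand), which encodes the joining chain of polymeric IgM and IgA and is also transcribed in plasma cells that make IgG, moved in the same way. Its levels were 0.182, 0.497, 0.398 and 0.907 CPM in 3 mo wild-type mice and 2.42, 3.19 and 19.4 CPM at 19 mo. In V338Y mice they were 0.402, 0.191, 0.248 and 0.692 CPM at 3 mo and 4.41, 4.69, 9.03 and 11.4 CPM at 19 mo. Here too each 19 mo mouse lay above all 3 mo mice. The log2 fold changes were 4.05 (SE 0.82, edgeR adjusted p = 0.00561) and 4.29 (SE 0.46, adjusted p = 0.000159), and 2.48 (adjusted p = 0.00380) and 4.01 (adjusted p = 0.000120) without mouse 5. Iglc2, a lambda constant gene, was counted in only 1 of 8 mice at 3 mo (1 count) and in all 7 at 19 mo (3 to 19 counts). It was at least 14.1-fold higher at 19 mo in wild type, taking 3 counts over the 3 mo group as the floor (7.73-fold without mouse 5), and its log2 fold change in V338Y was 4.65 (SE 0.74, edgeR adjusted p = 0.00097). Lambda was a small part of the light chains, at 1.05 to 11.7% of constant counts per kb in the 19 mo mice.

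**Figure D1:**
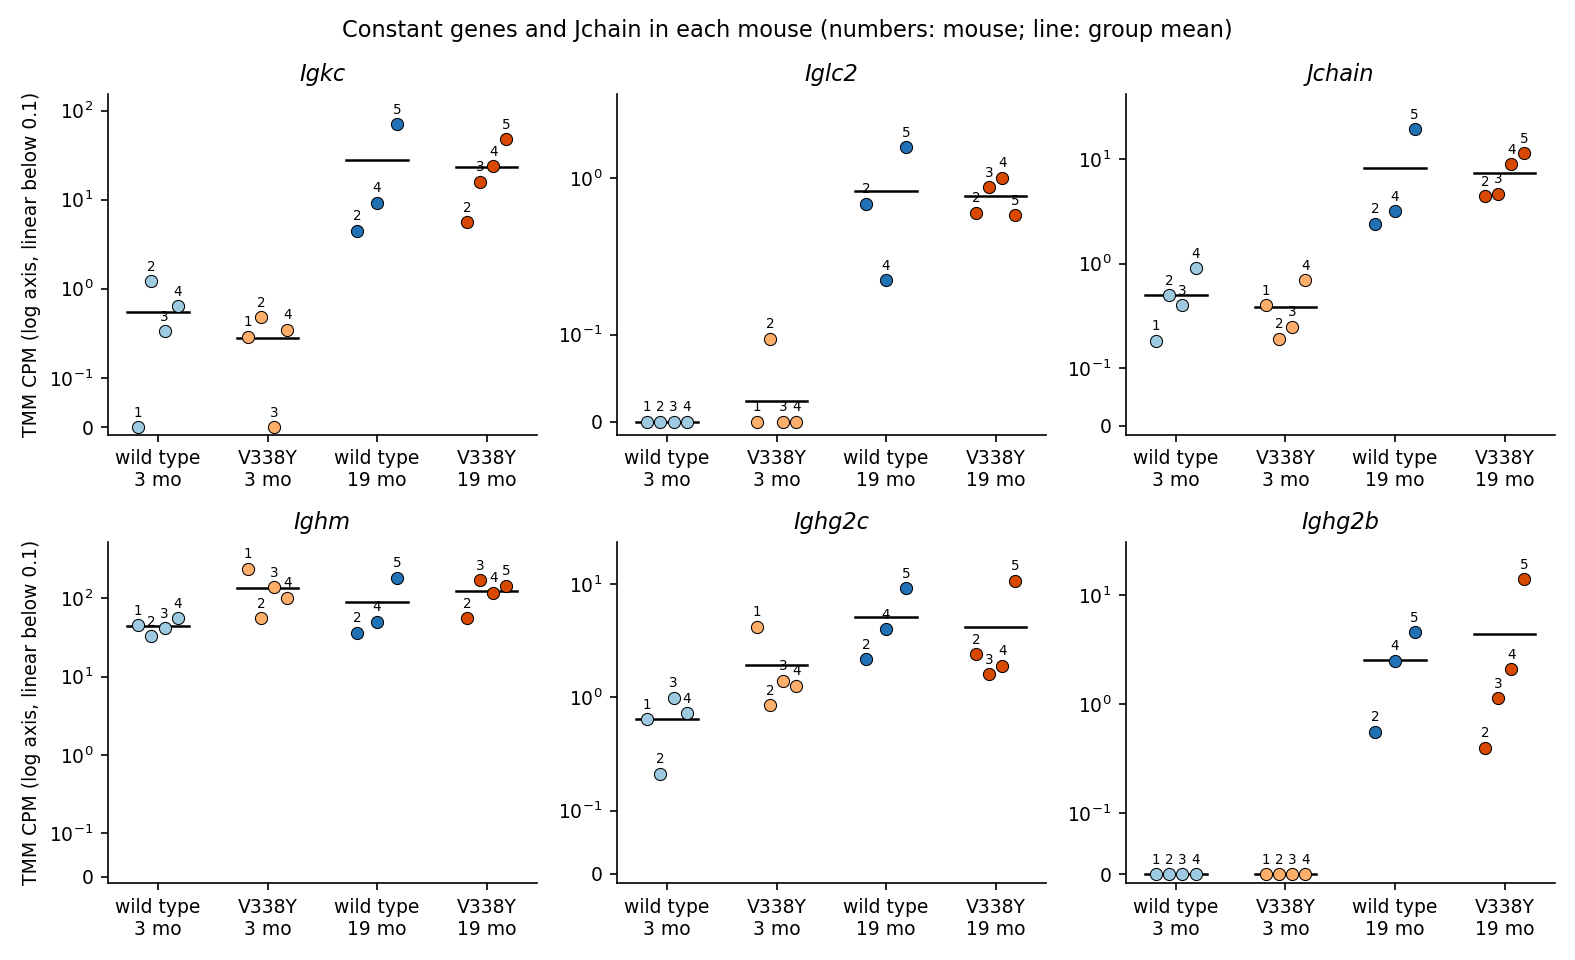
Levels of 5 constant genes and Jchain in each of the 15 mice, in TMM CPM on a log axis that is linear below 0.1. Points are mice with their label numbers, lines are group means. Igkc, Iglc2, Jchain and Ighg2b are higher in every 19 mo mouse than in every 3 mo mouse, whereas the Ighm levels of the ages overlap (32.9 to 239 CPM at 3 mo, 36.6 to 184 CPM at 19 mo).

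Ighm (chr12:113418558-113422730, minus strand) did not follow the light chains. Its levels at 3 mo were 45.8, 32.9, 41.9 and 56.1 CPM in wild-type mice and 239, 55.8, 140 and 102 CPM in V338Y mice. At 19 mo they were 36.6, 50.2 and 184 CPM in wild type and 56.3, 171, 119 and 145 CPM in V338Y. Young muscle thus held 463 to 4167 counts of Ighm where Igkc had at most 17 counts. Per kb of exon, the ratio of Ighm to Igkc was 7.68 to 235 in the 6 young mice with an Igkc count and 0.736 to 3.05 in the old mice. Between the ages Ighm differed by a log2 fold change of 1.03 in wild type (SE 0.48, edgeR adjusted p = 0.117) and of -0.12 in V338Y (SE 0.42, adjusted p = 0.832). Neither passed the threshold of 0.05. Without 19 mo wild-type mouse 5 the wild-type value was -0.03.

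**Figure D2:**
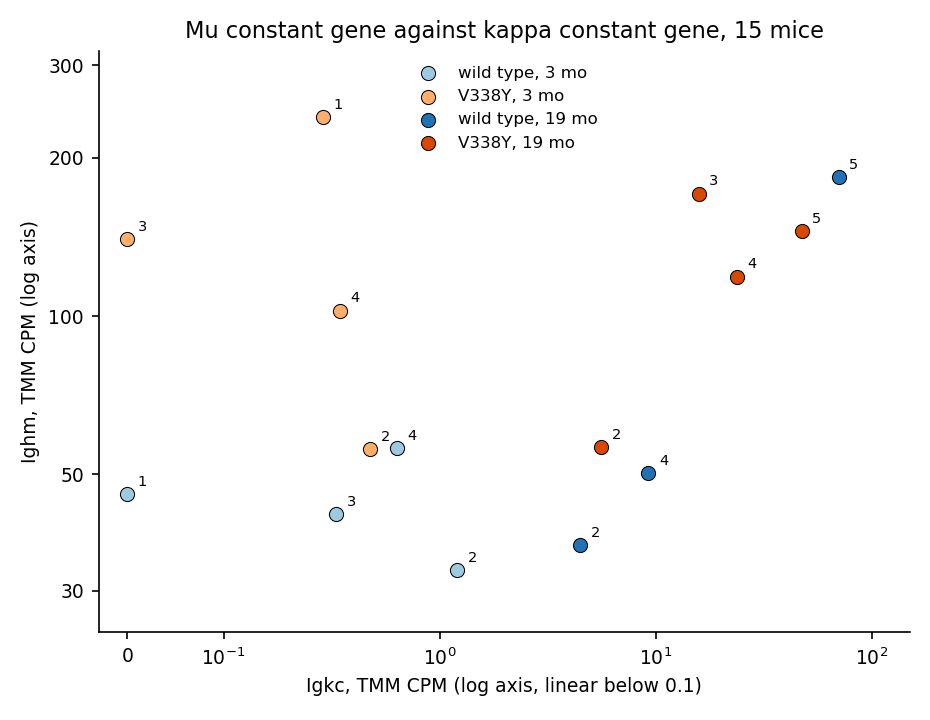
Ighm against Igkc in each of the 15 mice, both in TMM CPM, Ighm on a log axis and Igkc on a log axis that is linear below 0.1. The 8 young mice lie at or below 1.21 CPM of Igkc over the whole Ighm range, from 32.9 to 239 CPM, while in the 7 old mice higher Igkc goes with higher Ighm in most mice.

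Among the young mice, Ighm was higher in V338Y than in wild type by a log2 fold change of 1.62 (SE 0.35), with an unadjusted edgeR p of 0.000843 and an adjusted p of 0.201, so it did not pass the threshold. The groups overlapped in 1 pair of mice, wild-type mouse 4 and V338Y mouse 2. Ighg2c, which encodes the IgG2c constant region of C57BL/6 mice, had 0.638, 0.213, 0.995 and 0.725 CPM in young wild-type mice and 4.20, 0.858, 1.41 and 1.27 CPM in young V338Y mice. Its log2 fold change between the genotypes was 1.65 (SE 0.55, edgeR adjusted p = 0.422). These were the 2 antibody genes with enough counts to be tested at 3 mo, and 0 of 2 passed, against 0.075% of all genes tested (0 with DESeq2). At an unadjusted edgeR p under 0.05 there were 2 of 2, against 1293 of all 13333 genes tested. Across the 8 young mice of both genotypes Ighg2c and Ighm went together, with Pearson's r = 0.95 and Spearman's rho = 0.833 (exact permutation p = 0.000496 and 0.0154, adjusted over 6 relations 0.00298 and 0.0461). Without V338Y mice 1 and 3, which lay farthest from the median, r was 0.784. Both genes had higher levels in V338Y, so the relation over pooled mice includes the difference between the genotypes. It was not computed within a genotype.

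Of the class-switched constant genes, Ighg2b alone was higher in every old mouse than in every young mouse, and the class differed between mice. Ighg2b, for IgG2b, had 0 counts in all 8 mice at 3 mo and 0.560, 2.52 and 4.55 CPM in wild-type and 0.401, 1.14, 2.11 and 14.0 CPM in V338Y mice at 19 mo. It was at least 43.4-fold higher at 19 mo in wild type and at least 71.4-fold higher in V338Y, or 26.2-fold and 19.7-fold without mouse 5 of each group. Ighg2c was called higher at 19 mo in wild type, where it had 2.18, 4.0 and 9.18 CPM (log2 fold change 2.96, SE 0.55, edgeR adjusted p = 0.00392). In V338Y it had 2.4, 1.61, 1.91 and 10.7 CPM at 19 mo, which overlapped the young mice, and was not called (1.07, SE 0.68, adjusted p = 0.220, and -0.05 without mouse 5).

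Igha, the constant region of IgA, the antibody of mucosal surfaces, was at 0 in 7 of 8 young mice. It had 1.87, 0.0741 and 0.414 CPM in old wild-type mice and 2.10, 2.48, 2.71 and 18.001 CPM in old V338Y mice. Each old V338Y mouse thus lay above each old wild-type mouse, with a log2 fold change of 2.98 (SE 1.07) that had an edgeR adjusted p of 0.537, or 1.58 (adjusted p = 0.562) without V338Y mouse 5. The age effect on Igha in V338Y was 6.17 (SE 1.15, adjusted p = 0.00227), and 4.78 (adjusted p = 0.000351) without mouse 5. Ighg3, for IgG3, was at 0 in old wild-type mice 2 and 4 and at 3.72 CPM in mouse 5, and was at 0.386 to 1.21 CPM in all 4 old V338Y mice. Ighg1, for IgG1, had 960 counts in old V338Y mouse 5, 50 in old wild-type mouse 5 and at most 4 in the other 13 mice. Ighe had 11 counts in old V338Y mouse 5 and 0 in all others.

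As a share of heavy constant counts per kb of exon, Ighm made up 96.7 to 99.1% in young mice and 87.0 to 96.6% in 6 of 7 old mice. It was 63.4% in old V338Y mouse 5, where Ighg1 alone took 53.6% of the 1640 class-switched counts on this scale. Ighg2c led the class-switched genes per kb in the other 6 old mice, with 38.5 to 75.7%. The order depended on the scaling by length: of plain counts Igha led in old V338Y mice 3 and 4, with 37% and 34.2% against 24% and 24.1% for Ighg2c, and Ighg2c led in 4 mice. Igha took 26.4 to 29.5% in old V338Y mice 2, 3 and 4 and 27.4% in old wild-type mouse 2, but 0.697% and 1.31% in old wild-type mice 4 and 5. These shares rest on 55 to 266 class-switched counts per mouse outside V338Y mouse 5, and they were not tested.

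**Figure D3:**
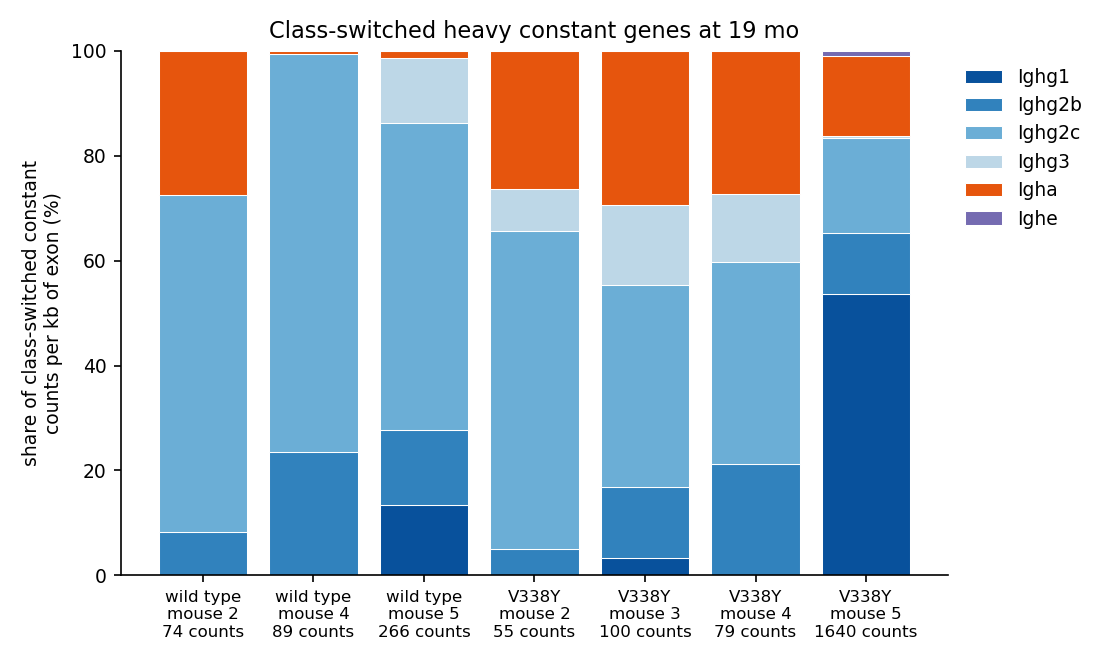
Share of each class-switched heavy constant gene in the 7 mice of 19 mo, in percent of class-switched counts per kb of exon, with the number of counts under each bar. On this scale Ighg2c leads in 6 mice (38.5 to 75.7%) and Ighg1 in V338Y mouse 5 (53.6%), whereas of plain counts Igha leads in V338Y mice 3 and 4 (37% and 34.2%).

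Over all antibody genes together, 14 of the 15 that could be tested in wild type were called higher at 19 mo (edgeR adjusted p under 0.05), against 18.3% of all 13657 genes tested. In V338Y 29 of 31 were called higher, against 24.4% of all 13868. The tested genes passed the count filter mostly through the old mice, so nothing is read from these shares. Ighm was the exception in wild type, and Ighm and Ighg2c were the exceptions in V338Y. The median of the tested genes on the log2 scale was 5.84 for wild type and 5.92 for V338Y, or 4.6 and 4.44 with genes at 0 in all young mice set to their lower bound, against medians of 0.02 and 0.07 over all genes tested. The calls were 10 without 19 mo wild-type mouse 5 and 15 without 19 mo V338Y mouse 5. Leaving out 3 mo wild-type mice gave 8 to 9 calls, and leaving out 19 mo wild-type mouse 2 gave 27. Leaving out 19 mo V338Y mice 3 and 4 gave 19 and 18. In both genotypes 9 genes were called, Igkc, Iglc2, Jchain, Ighg2b, Igkj2, Ighv1-26, Igkv4-91, Igkv5-39 and Igkv6-20, which is 64.3% of the wild-type and 31.0% of the V338Y calls.

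J genes are short segments between V and constant regions. Igkj2 had at most 1 count in the young mice and 1, 19 and 73 counts in old wild-type and 7, 10, 22 and 30 in old V338Y mice. In V338Y it was at least 22.3-fold higher at 19 mo, and in wild type its log2 fold change was 6.39 (SE 1.57, edgeR adjusted p = 0.0128), or 4.62 (adjusted p = 0.0374) without mouse 5. Igkj5 was at least 28.4-fold higher in V338Y, or 12.1-fold without mouse 5. Ighj1 had 0 to 3 counts in young and 2 to 68 in old mice (log2 fold change in V338Y 3.23, SE 0.85, adjusted p = 0.0118). Summed over all antibody genes except Ighm, the level was 1.64 to 5.92 CPM in young and 26.1 to 257 CPM in old mice. The group means were 3.14 ± 1.21 (SD, n = 4) and 107 ± 129 CPM (n = 3) in wild type, and 3.39 ± 1.73 (n = 4) and 110 ± 102 CPM (n = 4) in V338Y. Gm26917 and Gm42418, non-coding genes known to collect ribosomal RNA reads, had 408 to 836 and 206 to 578 CPM in young and 2121 to 3407 and 1183 to 1518 CPM in old mice. The 10 macrophage genes summed to 231 to 417 CPM in young and 338.5 to 501 CPM in old mice. Of them, 5 of 10 rose with age in wild type and 6 of 10 in V338Y, against 18.3% and 24.4% of all genes. The part of these in the age differences was not tested. With Ighm, the means were 47.3 and 197 CPM in wild type and 138 and 233 CPM in V338Y, and 76.0 and 176 CPM at 19 mo without mouse 5. In bulk RNA, fewer cells of a type and less RNA per cell cannot be told apart, and this holds for every level given here.

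The number of V genes counted tells how many different segments were in use. With at least 10 counts as the criterion, young wild-type mice had 0, 1, 0 and 0 V genes of 204 in the files, and young V338Y mice had none. Old wild-type mice had 6, 11 and 21, and old V338Y mice had 3, 15, 17 and 37. The mice with more V-gene counts had more V genes: these counts were 217, 239 and 1547 in old wild-type and 152, 408, 508 and 1462 in old V338Y mice, against 2 to 39 in young mice. The group means were 12.7 ± 7.64 V genes (SD, n = 3) and 18 ± 14.1 (n = 4) at 19 mo.

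With all counts scaled to the lowest library total and the same criterion of 10 counts, old wild-type mice had 3, 4 and 14 V genes and old V338Y mice 3, 7, 16 and 19, so the genotypes overlapped. The number of V genes with at least 1 count was compared at an equal number of V-gene counts. Rarefied to 152 V-gene counts, the lowest number, old wild-type mice were expected to show 21.9, 19.4 and 32.6 V genes with at least 1 count and old V338Y mice 44.0, 38.0, 43.1 and 61.9, without overlap. V338Y mice 2, 3 and 4 alone, without mouse 5, also lay above every wild-type mouse. In the same direction, 50% of all V-gene counts lay in 3, 4 and 3 V genes in wild-type mice and in 5, 7, 8 and 13 V genes in V338Y mice. Mouse 5 of either genotype shows this at similar numbers of counts, with 77 V genes in wild type and 133 in V338Y. This number is computed over the chosen genes' class with 3 and 4 mice, and it was not tested.

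**Figure D4:**
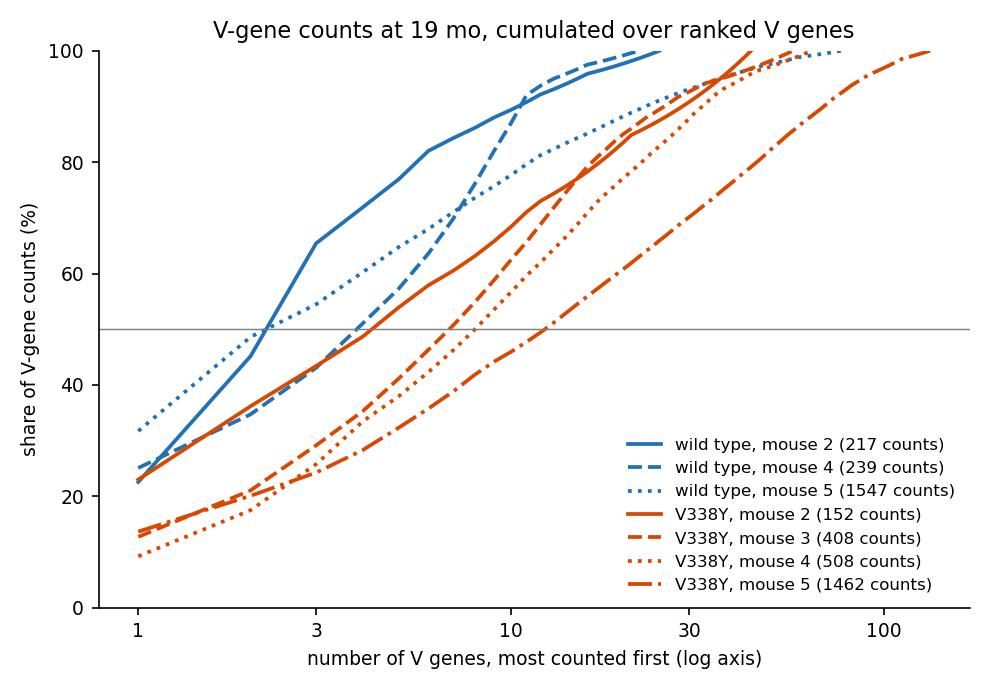
Cumulated share of V-gene counts in the 7 mice of 19 mo, in percent, over V genes ranked from the most counted (log axis). The grey line marks 50%, which wild-type mice cross at 3 to 4 and V338Y mice at 5 to 13 V genes.

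The leading V genes differed between most old mice. In wild-type mouse 5, Ighv11-2 took 261 of 562 heavy V counts (46.4%, exact 95% interval 42.3 to 50.7) and Igkv14-126 took 491 of 970 kappa V counts (50.6%, 47.4 to 53.8). These are the first B-1a pair printed above. In the other 6 old mice Ighv11-2 had 0 to 10 and Igkv14-126 0 to 23 counts. Among these 6 both were highest in V338Y mouse 4 (10 and 23 counts) and next in wild-type mouse 4 (4 and 15 counts). Igkv14-126 was also the most counted kappa V gene in young wild-type mice 2 and 4, with 13 and 6 counts, and the only V gene that reached 10 counts in a young mouse. Its age effect in wild type, a log2 fold change of 5.04 (SE 1.63, edgeR adjusted p = 0.0381), was 0.36 (adjusted p = 0.845) without mouse 5.

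The second pair, Ighv12-3 and Igkv4-91, led in V338Y mouse 4. There Ighv12-3 had 42 of 194 heavy V counts (21.6%) and Igkv4-91 47 of 307 kappa V counts (15.3%). Igkv4-91 also led in wild-type mouse 2 with 49 of 115 kappa V counts (42.6%), where Ighv12-3 had 2 counts, and it had 91 counts in wild-type mouse 5 beside 14 of Ighv12-3. Neither gene had a count in a young mouse. Whether the 2 chains of a pair came from the same cells cannot be told from bulk RNA.

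The remaining old mice were led by other genes. Ighv1-26 had 49 of 89 heavy V counts (55.1%) in wild-type mouse 2. Ighv14-4 led the heavy chains of wild-type mouse 4 (23 of 74, 31.1%) and of V338Y mouse 2 (6 of 44, 13.6%), and Igkv6-20 led the kappa chains of both (60 of 145, 41.4%, and 35 of 101, 34.7%). In V338Y mouse 3 the leading genes were Ighv1-9 (33 of 151, 21.9%) and Igkv5-39 (52 of 249, 20.9%). In V338Y mouse 5 they were Ighv1-5 (94 of 570, 16.5%), which had 0 counts in all other mice, and Igkv12-44 (200 of 862, 23.2%). The leading gene held 31.1 to 55.1% of heavy V counts in wild-type and 13.6 to 21.9% in V338Y mice. Of kappa V counts it held 41.4 to 50.6% against 15.3 to 34.7%. The shares overlapped in neither chain, but some of their exact intervals did. In heavy chains wild-type mouse 4 (20.8 to 42.9%) overlapped V338Y mice 2, 3 and 4, and wild-type mice 2 and 5 overlapped none. In kappa chains V338Y mouse 2 (25.5 to 44.8%) overlapped wild-type mice 2 and 4, and V338Y mice 3, 4 and 5 overlapped none. The intervals cover counting error only, and the shares were not tested between the genotypes.

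Of the 204 V genes, 3 had a count in every old mouse, Igkv6-20, Iglv1 and Iglv3. Igkv6-20 had 0 counts in every young mouse and 1, 60 and 89 counts in old wild-type and 35, 24, 42 and 10 in old V338Y mice. It was at least 67.5-fold higher at 19 mo in wild type and at least 40.4-fold higher in V338Y (38.4-fold and 50.4-fold without mouse 5 of each group). At the other extreme, 33 of the 78 genes reached 10 counts in 1 mouse alone, 18 of them in old V338Y mouse 5 and 7 in old wild-type mouse 5.

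The comparison of genotypes at 19 mo asks whether the substitution changed antibody transcripts in old muscle. Of 35 antibody genes tested, 19 were higher and 16 lower in V338Y, and 0 were called, against 0.0434% of all 13833 genes tested. At an unadjusted edgeR p under 0.05 there were 12 of 35, against 1235 of all 13833 genes tested. DESeq2 called 2, Igkv1-110 and Igkv12-89. For DESeq2 and for the block below, the share over all genes is not given here. Across the genotypes, mice numbered 2, 4 and 5 had correlations of their expression residuals of 0.134, 0.238 and 0.398. Mice with different numbers had -0.408 to 0.464, so a pairing by number is not certain. A fit with this number as a replicate block, which leaves out V338Y mouse 3, called 3 genes. The main constant genes did not pass the test, with log2 fold changes of -0.24 (SE 0.93) for Igkc, 0.47 (SE 0.57) for Ighm, -0.12 (SE 0.70) for Jchain, -0.07 (SE 0.57) for Iglc2, 0.89 (SE 1.08) for Ighg2b and -0.23 (SE 0.73) for Ighg2c. The direction of several of these rested on mouse 5 of either genotype. Without V338Y mouse 5 the values were -1.002 for Ighg2b (edgeR adjusted p = 0.700), -1.34 for Ighg2c (0.524) and -0.86 for Igkc (0.802). Without wild-type mouse 5 they were 1.797 for Igkc, 1.53 for Ighm, 1.43 for Jchain and 0.73 for Iglc2 (adjusted p of 0.629 to 0.686), and 0.49 for Ighg2c (0.868). With standard errors of this size, even a several-fold difference in Igkc was not detectable with these mice.

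Igkv1-110, a kappa V gene, had the smallest p of the 35. It had 0.124, 0 and 0.165 CPM in old wild-type mice and 2.0, 1.68, 1.51 and 2.83 CPM in old V338Y mice, and 0 to 0.182 CPM in young mice of either genotype. The 4 old V338Y mice lay above all 11 others, with 15 to 44 counts against at most 2. The log2 fold change at 19 mo was 4.29 (SE 0.58, edgeR adjusted p = 0.0924), 4.07 (adjusted p = 0.0921) without mouse 5 and 4.36 (adjusted p = 0.0257) with the replicate block. It passed the threshold also in a fit of all 15 mice (4.26, adjusted p = 0.0107), without a filter (adjusted p = 0.0220) and with DESeq2 (adjusted p = 0.000147). These and the block were 4 of 14 alternatives. In the other 10 it did not pass, with an adjusted p of up to 0.552. With age in V338Y it rose by 5.33 (SE 0.56, adjusted p = 0.000152). Only the old V338Y mice reached 10 counts of Igkv1-110, so this group brought it into the chosen genes and past the count filter. It was then singled out by its p. Its p-values between the genotypes and with age are therefore given as a description of a chosen gene. Igkv1-117, its nearest relative, had 3, 0 and 2 counts in old wild-type and 2, 3, 11 and 13 in old V338Y mice, and was not called (log2 fold change 2.22, SE 0.91, adjusted p = 0.544).

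The other 2 genes called with the block were Igkv12-89 (log2 fold change 6.21, SE 0.65, adjusted p = 0.0115) and Ighv1-55 (3.17, SE 0.49, adjusted p = 0.0454), the latter named after its values were seen. Igkv12-89 had 0, 0 and 1 counts in old wild-type mice and 2, 2, 39 and 59 in V338Y mice, so its difference rested on mice 4 and 5. Ighv1-55 had 1, 3 and 4 counts against 1, 0, 20 and 61. Without the block their edgeR adjusted p was 0.525 and 0.570. Igkv14-126 was lower in V338Y (log2 fold change -4.50, SE 1.77, adjusted p = 0.541), a value set by wild-type mouse 5, without which it was 0.22. The interaction of age and genotype was called for 0 of 35 antibody genes, against 0% of 14128 genes tested by edgeR, and for 0 by DESeq2. At an unadjusted edgeR p under 0.05 there was 1 antibody gene of 35, against 1361 of all 14128. For Ighg2c the interaction was -1.90 (SE 1.03, adjusted p = 0.574).

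**Figure D5:**
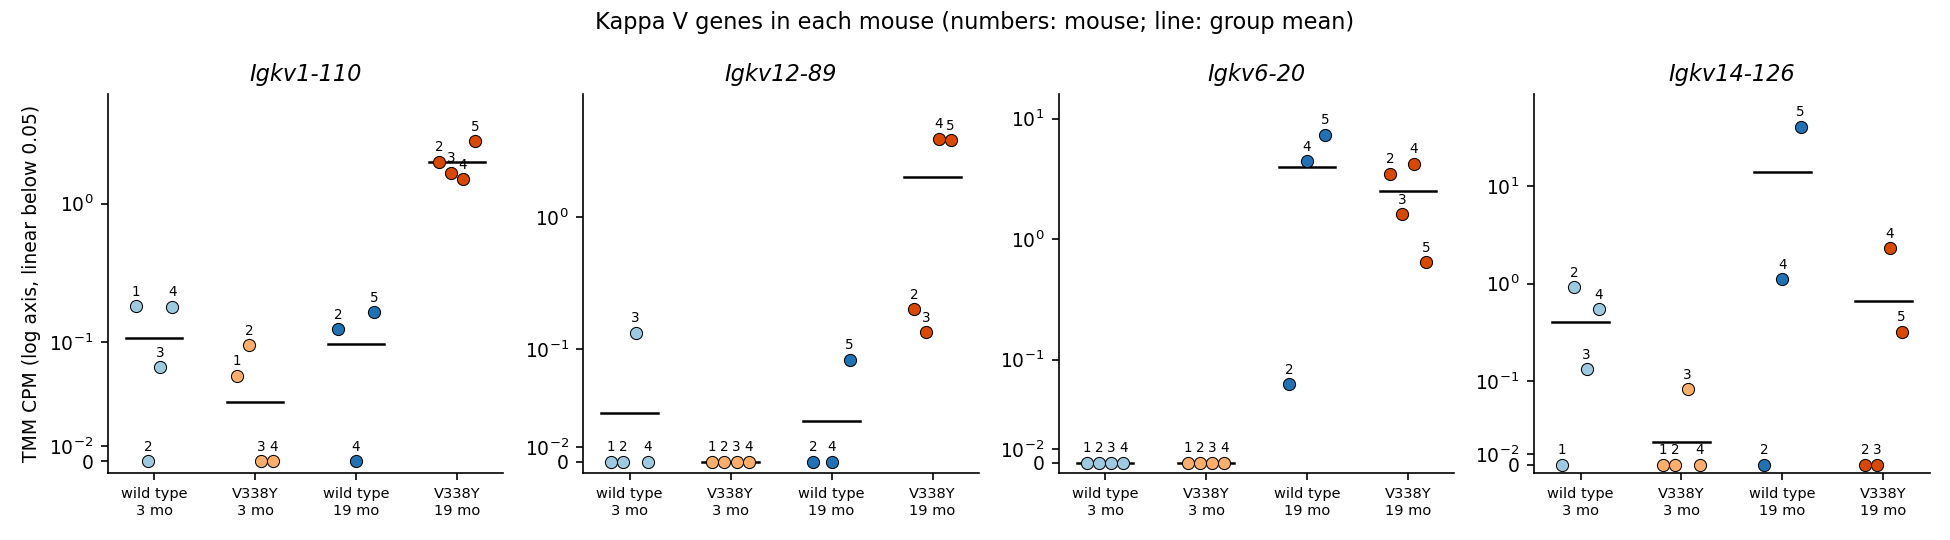
Levels of 4 kappa V genes in each of the 15 mice, in TMM CPM on a log axis that is linear below 0.05. Points are mice with their label numbers, lines are group means. Igkv1-110 lies at 1.51 to 2.83 CPM in the 4 old V338Y mice and at most at 0.182 CPM in all others, and Igkv14-126 is led by old wild-type mouse 5.

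Cells that could carry these transcripts were checked by marker lists. Some plasma cell genes were scarce even in old muscle. Mzb1, a chaperone of IgM assembly, had 2 to 24 counts there. Derl3, of the secretory pathway, and Tnfrsf17, the survival receptor BCMA, had at most 5 counts in any mouse. Others were not scarce at either age. Group means of Sdc1, Irf4 and Cd38 were 3.93 to 4.71, 5.11 to 6.73 and 8.77 to 10.2 CPM at 19 mo. At 3 mo they were 3.51 to 3.89, 5.75 to 5.98 and 8.17 to 8.41 CPM. Of the 15 plasma cell genes, which include Jchain, none was at 0 in all mice, and their summed level was 134 to 170 CPM in young and 148 to 182 CPM in old mice, carried by genes such as Xbp1 that muscle also transcribes. In wild type 1 of 9 tested, Jchain, rose with age, against 18.3% of all genes, and in V338Y 6 of 12 rose, against 24.4%, Jchain, Mzb1, Pou2af1, Prdm1, Slamf7 and Xbp1 (5 without mouse 5, 4 without mouse 4). Mzb1 rose by 2.51 (SE 0.75, edgeR adjusted p = 0.0203, and 0.0596 or 0.0507 without young mouse 1 or 3) and Prdm1, which encodes the plasma cell factor Blimp-1, by 1.2 (SE 0.32, adjusted p = 0.0125) on the log2 scale. Some of these markers had few counts, and others were present in young muscle too. The source was therefore not assigned to plasma cells, and the genes are described here as antibody transcripts.

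B cells were checked in the same way. Ms4a1, which encodes CD20, had 2, 5 and 10 counts in old wild-type and 4, 14, 51 and 16 in old V338Y mice, against 0 to 4 in young mice. None of 3 tested of 14 listed B cell genes was called with age in wild type, and 7 of 9 tested rose with age in V338Y, against 24.4% of all genes, among them Ms4a1, Cd79a, Cd22, Cd37, Bank1 and Ebf1 (5 of 6 without mouse 5, 4 of 6 without mouse 4). The summed level of the list was 29.7 to 38.9 CPM in young, 41.6 to 46.6 CPM in old wild-type and 49.1 to 80.9 CPM in old V338Y mice, and no gene of it was at 0 in all mice. The genotypes were not called different in any of them at 19 mo (0 of 9 tested, against 0.0434% of all genes tested). The median log2 fold change of these 9 genes, V338Y over wild type, was 1.61, against 0.008 over all genes tested, and this difference was not tested. Old wild-type mouse 5, with the highest Igkc of all, had 10 counts of Ms4a1, and old V338Y mouse 4, with the highest Ms4a1, had 23.7 CPM of Igkc against 70.6. The part of B cells in the antibody transcripts was not tested.

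Across the 7 old mice Igkc and Jchain rose together, with r = 0.979 and rho = 0.964 (exact permutation p = 0.000992 and 0.00278, adjusted over 6 relations 0.00298 and 0.0167), and r = 0.899 without both mice numbered 5. Igkc and Ighm gave r = 0.778 and rho = 0.857 (exact permutation p = 0.0298 and 0.0238, adjusted 0.0595 and 0.0476), and r = 0.754 without both mice numbered 5. With Ms4a1, Igkc gave r = 0.104 and rho = 0.714 (exact permutation adjusted p = 0.862 and 0.0881). With Mzb1 it gave r = 0.344 and rho = 0.821 (adjusted 0.527 and 0.0512). Without both mice numbered 5, r rose to 0.898 and 0.951 for these genes, so the low values rested on them.

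The genes around antibody secretion were read from lists of recombination and switching genes, of survival factors and attractants, and of antibody receptors. Rag1 and Rag2, which encode the recombinase of V segment joining, had at most 3 counts per mouse. None of the 5 tested of 11 genes in that list was called with age in either genotype by edgeR with all mice. Cxcl13, the attractant that draws B cells into follicles, rose in both. It had 3, 23, 9 and 17 counts in young wild-type and 10, 3, 9 and 3 in young V338Y mice. At 19 mo it had 33, 78 and 277 counts in wild-type and 36, 64, 58 and 63 in V338Y mice, a log2 fold change of 3.31 (SE 0.80, edgeR adjusted p = 0.0118) and 3.12 (SE 0.31, adjusted p = 0.000121). Without old wild-type mouse 5 the first was 1.92 (adjusted p = 0.0359). Its highest level was in old wild-type mouse 5, the mouse with the highest Igkc. Over the 7 old mice the relation of Cxcl13 and Igkc gave r = 0.816 and rho = 0.750 (exact permutation adjusted p = 0.0705 and 0.0795). Without both mice numbered 5, r was 0.692.

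Of the 18 survival factors and attractants, 3 of 10 tested rose with age in wild type, against 18.3% of all genes, and 6 of 10 in V338Y, against 24.4%, where 1 fell (4 rose without mouse 4 or without mouse 5). Cxcl12, which holds plasma cells in their niche, rose by 1.03 (SE 0.12, adjusted p = 0.000486) and 1.27 (SE 0.16, adjusted p = 0.000323), and Icam1, an adhesion molecule, by 1.09 in both (edgeR adjusted p = 0.00197 and 0.00216). Tnfsf13b, the B cell survival factor BAFF, had 1 to 8 counts in all mice and was not tested. Of the 12 receptors and carriers, 2 rose and 2 fell of 8 tested in wild type, where 18.3% of all genes rose and 2435 of 13657 fell. In V338Y 3 rose and 1 fell of 7 tested, where 24.4% of all genes rose and 3116 of 13868 fell. Pigr, which carries polymeric IgA and IgM across epithelia, fell by 3.6 (SE 1.06, adjusted p = 0.0271) and by 2.39 (SE 0.85, adjusted p = 0.0422), calls that were lost without old wild-type mouse 2 or 5 or young wild-type mouse 3 (adjusted p of 0.0529 to 0.0695), and without any 1 of the old V338Y mice (0.0522 to 0.0889). Glycam1 and Ccl21a, markers of lymph node vessels and stroma, had 0 counts in all 15 mice, and T cell genes summed to 0.461 to 1.27 CPM in young and 1.70 to 4.72 CPM in old mice. No gene of these 3 lists was called between the genotypes at either age, against 0.075% of all genes tested at 3 mo and 0.0434% at 19 mo.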

How the data were processed

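Ribosome-depleted, stranded single-end libraries were made from quadriceps RNA of 15 mice. The authors assigned reads to genes with RSEM and deposited expected counts per gene, given as whole numbers and not normalized. The submitters' processing notes name CASAVA 1.8, bcl2fastq 1.8.4, STAR 2.4.2a and GRCm38, whereas the paper names GRCm37. The strand setting of the counting is not given in the sources used here. Of 39179 gene identifiers 37607 were matched to GENCODE M21 (GRCm38), and 24 annotated antibody genes, such as Ighd, were not matched and not analysed here.

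Counts were compared in edgeR 4.0.16 (R 4.3.3) by the quasi-likelihood test with TMM normalization, keeping a gene when 50% or more of the mice in either compared group had 10 counts or more. P-values were adjusted by Benjamini-Hochberg over all genes tested, and called under 0.05. CPM are counts scaled by TMM over all 15 mice. V genes were rarefied by the exact hypergeometric expectation, and intervals are exact Clopper-Pearson intervals that cover counting error only. The named genes are the constant genes, Jchain, the 10 V and 3 J genes with the highest mean CPM, the leading V genes of each old mouse, and leading genes of the marker lists. Other genes named singly, such as Ighv1-55, Pigr, Derl3, Tnfrsf17, Sdc1, Tnfsf13b, Rag1, Rag2, Glycam1 and Ccl21a, were chosen after their values were seen. Some genes of the lists are not reported here. Members and lists were chosen with earlier results of these data known. Same-numbered mice of the 2 genotypes at 19 mo had residual correlations of 0.134, 0.238 and 0.398, all over 0.1, so the numbers were taken as pairs there. Mice with different numbers had -0.408 to 0.464 in that comparison, so the pairing is not certain. In the other comparisons same-numbered mice had -0.159 to 0.143. Separate animals are the replicates. Alternatives were RLE and upper-quartile normalization, DESeq2 1.42.0, other filters, the block, a fit of all 15 mice and each mouse left out. The code was tested on simulated data.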

Additional observations from a re-analysis of the deposited data

Results flagged for a closer look

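In groups of 4 mice, a mouse stood out where its gap to the nearest other mouse took a larger part of the group's range than Dixon's 95% critical value, a limit that chance exceeds in about 1 in 20 groups. Of 20 groups of constant genes, Jchain and summed measures, 6 held such a mouse. Old V338Y mouse 5 stood out 4 times, with Ighg1 at 61.7 CPM against 0 to 0.268 in the other 3 mice, Igha at 18.001 against 2.10 to 2.71 CPM, Ighg2b at 14.0 against 0.401 to 2.11 CPM, and Ighg2c at 10.7 against 1.61 to 2.4 CPM. The same mouse held the high neutrophil granule and erythroid transcripts, and their part was not tested. Young V338Y mouse 1 stood out in Ighg2c, at 4.20 against 0.858 to 1.41 CPM, and also had the highest Ighm of all mice. Young wild-type mouse 2 had 1 V gene with at least 10 counts against 0 in the other 3, a difference of a single gene, Igkv14-126.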

How the results depend on the processing

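The age effects on Igkc, Jchain, Ighg2b and Igkv5-39 kept their direction and their side of the threshold under every alternative fitted. The number of antibody genes called higher at 19 mo moved most with the filter, from 14 in wild type and 29 in V338Y to 34 and 48 without a filter and to 5 and 5 with filterByExpr, which test more and fewer genes. DESeq2 called 8 in wild type. Leaving out 1 mouse gave 8 to 27 calls in wild type and 15 to 28 in V338Y. Between the genotypes, no filter gave 1 call at 3 mo (Ighm, adjusted p = 0.0201), and at 19 mo DESeq2 gave 2 calls, no filter 1, a fit of all 15 mice 1 and the replicate block 3, against 0 without them. The adjusted p of Igkv1-110 at 19 mo ran from 0.000147 to 0.552 over the alternatives.

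When the label number of each mouse entered the fit as a replicate block, 10 genes were called with age in wild type and 15 in V338Y, where the numbers do not pair mice (same-number correlations of -0.135 to 0.0201 between the ages). The block turned the age effect on Ighm to -0.0031 in wild type and 0.19 in V338Y, on Igkv14-126 in wild type to -0.73, and the interaction to 0.29 for Igha and 0.36 for Igkv14-126. Iglc2 in wild type had an adjusted p of 0.0791 with it. The cause was not tested.

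Leaving out 1 mouse gave log2 fold changes with age of -0.030 to 1.40 for Ighm in wild type, -0.38 to 0.31 for Ighm in V338Y (0.12 without 19 mo mouse 2) and -0.045 to 1.84 for Ighg2c in V338Y. It gave -6.69 to 0.22 for Igkv14-126 between the genotypes at 19 mo, and interactions of -1.58 to 2.97 for Igha and -2.90 to 3.97 for Igkv14-126. The interaction for Igha was also 0.83 with DESeq2. None of the reversed values had passed the threshold, except that Igkv14-126 with age in wild type had.

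Without Ighm, chosen after seeing the data, the summed level at 3 mo was 3.14 CPM in wild type and 3.39 CPM in V338Y. Counting V genes from 1 count on gave means of 11, 3.75, 41.3 and 74.5 in 3 mo wild-type, 3 mo V338Y, 19 mo wild-type and 19 mo V338Y mice, and from 5 counts on 1, 0.25, 17.7 and 32.5 in the same order. With few counts per V gene, a V gene at 0 in a mouse was not detectable at this depth rather than absent.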
